A study of Mus musculus with 2 samples.

Results

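The genes described here are 38 markers of monocyte and macrophage states, measured by RNA-seq in bulk mouse ear skin. They were taken from a written list of gene symbols and found by symbol among the 34745 genes of the count table. All 38 were in the table, and 35 of them reached at least 1 CPM (counts scaled to a common library total) in either library, against 15240 of all genes. Within the list, Ly6c2, Ccr2 and Plac8 stand for monocytes, Cd163, Folr2, Lyve1 and Timd4 for resident macrophages, and Trem2, Gpnmb, Spp1 and Apoe for lipid-associated macrophages. The other 27 members fall by role into core identity genes, a growth factor with its receptor, transcription factors, scavenger and pattern receptors, secreted enzymes and lectins, and matrix proteins.

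The comparison was between 1 library of ear skin labelled KAT8 conditional knockout (KAT8 cKO) and 1 labelled wild type (WT). KAT8 is a histone acetyltransferase. The ears of both groups had been treated with imiquimod, a TLR7 agonist that gives a psoriasis-like inflammation in mouse skin. The cream was a 5% preparation, applied at 30 mg per ear on 3 consecutive days, and the ears were taken on day 4. The sources used here name neither the cells or promoter in which the knockout acts nor the age, sex, strain and number of animals per library, and no untreated skin was analysed. With 1 library per genotype there is no replicate check and no p-value, and each difference describes these libraries rather than the genotypes.

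Monocytes leave the blood through the chemokine receptor CCR2 and, in inflamed skin, mature into macrophages and monocyte-derived dendritic cells. Survival of the lineage depends on the receptor CSF1R and its ligands CSF1 and IL-34, and the factor PU.1, encoded by Spi1, sets its identity. Resident dermal macrophages carry scavenger receptors such as CD163 and take up debris, and macrophages that load lipid switch on genes such as Trem2, Gpnmb and Spp1. Langerhans cells of the epidermis share CSF1R and F4/80 with macrophages, and neutrophils share CD11b, CD14 and lysozyme.

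The libraries held 13727524 counts (labelled KAT8 cKO) and 12179608 counts (labelled WT). The members took 0.448% and 0.637% of them. Values are CPM after trimmed mean of M values (TMM) scaling, and 1 count was worth 0.0689 and 0.0868 CPM. Kat8 had 351 counts in the library labelled KAT8 cKO and 219 in the library labelled WT, a ratio of 1.27 (95% interval 1.07 to 1.51), so the level of the targeted transcript gives no check of the label. Xist, the RNA of the inactive X chromosome, had 6 and 11891 counts, and the Y-linked Eif2s3y 838 and 0. This is a male pattern in the library labelled KAT8 cKO and a female one in the library labelled WT. Sex-linked transcripts and the genotype label therefore move together throughout. For every member, a difference in sex and one in genotype cannot be told apart. Of the basal keratin genes, Krt5 stood at 12613 and 8602 CPM, Krt14 at 12064 and 12587 CPM and Krt15 at 322 and 47.5 CPM. Krt5 and Krt14 were named after their values were seen. The keratinocyte list as a whole ranged from -2.4 to 2.7 on the log2 scale (median -0.86). Ratios below are the library labelled KAT8 cKO over that labelled WT, and each has an exact 95% interval for the error of counting alone. No molecular identifiers are recorded, so reads may be copies of one molecule.

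More members were lower than higher in the library labelled KAT8 cKO. By a rule of size, a log2 ratio of CPM + 1 of at least 1 in either direction, 14 of the 35 measured members were lower and 2 were higher, with 19 in between. Over all measured genes the same rule found 8.63% lower, 4.56% higher and 13.2% in either direction. With plain CPM, in place of TMM scaling, it found 6.94% of all measured genes lower and 6.33% higher. Of the 35 members it then found 12 lower and 2 higher. The median log2 ratio was -0.59 over the members and 0.01 over all measured genes. Below 0 lay 27 of 35 members and 7528 of all 15240 measured genes. The lower members were Ly6c2, Plac8, Cd163, Folr2, Spp1, Cd68, Itgam, Ms4a7, Cd14, Vsig4, Lyz2, Chil3, F13a1 and Thbs1, and the higher ones were Apoe and Lyz1. Neutrophil markers were lower in the same library, 15 of 18 measured by the same rule and none higher (median -1.85, summed level 6114 CPM in the library labelled KAT8 cKO and 17333 CPM in the library labelled WT), and none of that list stood at 0. Their part in the members' values was not tested. In bulk tissue, fewer cells of a type and less RNA per cell cannot be told apart.

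**Figure D1:**
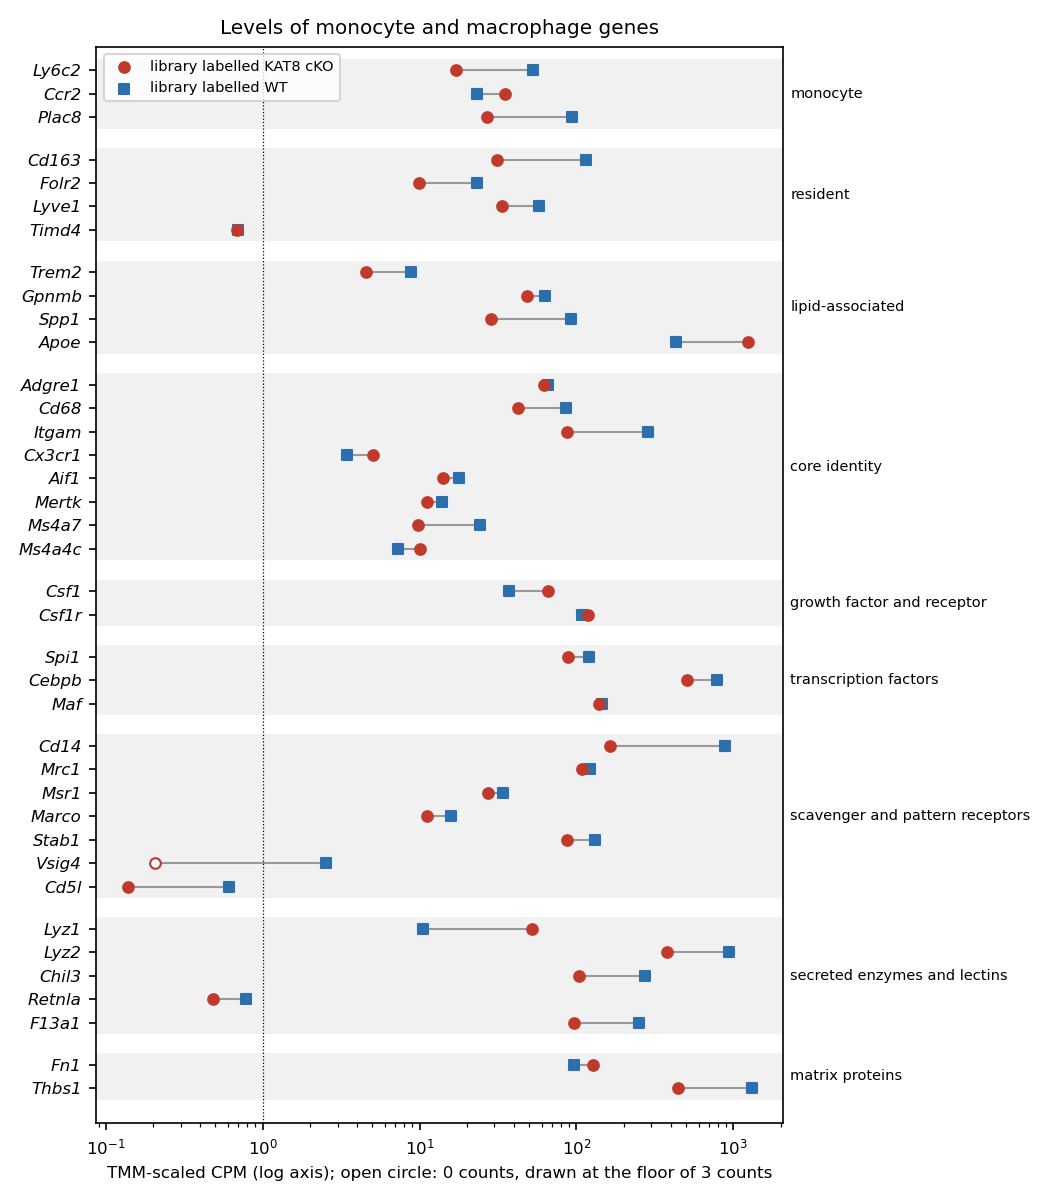
TMM-scaled CPM of each of the 38 members on a log axis, grouped by role, in the library labelled KAT8 cKO (red circles) and the library labelled WT (blue squares), with a dotted line at 1 CPM. Red lies left of blue for most members, as for Cd14 (164 and 882 CPM), and right of blue for Apoe (1242 and 429 CPM) and Lyz1 (52.2 and 10.5 CPM).

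Among the monocyte genes, Ly6c2 and Plac8 were lower and the chemokine receptor gene Ccr2 was not. Ly6c2, the antigen by which inflammatory monocytes are sorted, had 246 counts in the library labelled KAT8 cKO and 605 in the library labelled WT, or 17.0 and 52.5 CPM. It was 3.10-fold lower (interval 2.67 to 3.61). Plac8, a cysteine-rich protein gene of monocytes that neutrophils and lymphocytes also express, had 26.9 and 93.3 CPM and was 3.47-fold lower (interval 3.09 to 3.91). Ccr2, which brings monocytes out of the blood, had 512 and 269 counts, or 35.3 and 23.4 CPM, a ratio of 1.51 (interval 1.3 to 1.76). The class therefore split, with a median log2 ratio of -1.58 over its 3 genes, of which Plac8 and Ly6c2 lay below 0 and Ccr2 above. Their summed level was 79.1 and 169 CPM (2.14-fold lower), and 1.45-fold lower without Plac8.

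Ly6c2 has a close neighbour on chromosome 15 in Ly6c1, which endothelial cells express. The coding sequences were 80.7% identical, and 14.9% of the 100-base words of Ly6c2 transcripts also occurred in Ly6c1, so some reads could have been assigned to either. Ly6c1 had 1269 counts in the library labelled KAT8 cKO and 956 in the library labelled WT (ratio 1.05, interval 0.968 to 1.15). Ly6c2 took 16.2% of the pair's counts in the library labelled KAT8 cKO (interval 14.4% to 18.2%) and 38.8% in the library labelled WT (36.3% to 41.2%). The pair as a whole had 1515 and 1561 counts before scaling.

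Of the 3 measured resident genes Cd163 and Folr2 were lower by the rule, and Lyve1 lay below 0 without passing it. Cd163, the receptor for haptoglobin-bound haemoglobin, had 450 counts in the library labelled KAT8 cKO and 1320 in the library labelled WT, or 31.0 and 115 CPM (3.70-fold lower, interval 3.32 to 4.12). Folr2, a folate receptor of perivascular macrophages, had 9.99 and 23.4 CPM (2.34-fold lower, interval 1.90 to 2.88), and with plain CPM it no longer passed the rule. Lyve1, a hyaluronan receptor shared by perivascular macrophages and lymphatic vessels, had 33.4 and 57.6 CPM, a log2 ratio of -0.77. Timd4, a phosphatidylserine receptor of self-renewing macrophages, had 10 and 8 counts, under 1 CPM in both. The class summed to 75 and 196 CPM, 2.62-fold lower (interval 2.43 to 2.81) and 1.86-fold lower without Cd163.

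Lyve1 is also a lymphatic gene, so the lymphatic markers were read beside it. Of 7 measured genes of the lymphatic endothelium list none passed the rule, and the 5 that are not members lay between 0.16 (Mmrn1) and 0.66 (Reln) on the log2 scale. Prox1, the factor that defines lymphatic endothelium, had 56 counts in the library labelled KAT8 cKO and 37 in the library labelled WT. Its ratio was 1.20 (interval 0.779 to 1.87) and that of Mmrn1 1.13 (interval 0.927 to 1.37), and both intervals included 1. Those of Flt4, Pdpn and Reln lay above 1. Stab1, like Lyve1 a member expressed in both cell types, had a log2 ratio of -0.59. No gene of that list but Ccl21a was at 0 in either library. The part of lymphatic vessels in the values of Lyve1 and Stab1 was not tested.

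Of the lipid-associated genes only Apoe was higher, and it set the class's total. Apoe, the carrier of cholesterol exported by macrophages, had 18027 counts in the library labelled KAT8 cKO and 4939 in the library labelled WT, or 1242 and 429 CPM (2.90-fold higher, interval 2.81 to 2.99). Spp1, which encodes osteopontin, had 28.7 and 92.8 CPM and was 3.23-fold lower (interval 2.88 to 3.63). Trem2, a lipid-sensing receptor, had 66 and 102 counts, a ratio of 0.514 (interval 0.371 to 0.707) and a log2 ratio of -0.83 with the pseudocount. Gpnmb, a glycoprotein of lysosome-loaded macrophages and of melanocytes, had 48.2 and 63.1 CPM, a log2 ratio of -0.38. The class summed to 1324 and 594 CPM, 2.23-fold higher. Without Apoe its sum was 81.5 and 165 CPM, 2.02-fold lower (interval 1.88 to 2.18).

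Apoe is not restricted to macrophages. Sebaceous gland genes were higher in the same library, 9 of 13 by the rule of size and 1 lower (median 2.47), with a summed level of 9546 CPM in the library labelled KAT8 cKO and 2705 CPM in the library labelled WT. Schwann cell genes were higher as well, 4 of 8 with none lower (median 1.16, summed 451 and 219 CPM). No marker of either list was at 0. These were not the only lists that were higher, with medians of 1.44 for dendritic and Langerhans and 1.09 for T and natural killer genes. Medians were -3.13 for adipocyte, -0.86 for keratinocyte and 0.16 for fibroblast genes. Melanocyte genes, beside Gpnmb, had a median of 0.40 with 1 of 6 higher and 1 lower (summed 43.6 and 35.4 CPM, Slc45a2 at 0 in the library labelled WT). Cartilage and bone genes, beside Spp1, had a median of 0.86 with 4 of 9 higher (summed 383 and 327 CPM), and the bone genes Ibsp and Sp7 were at 0 in the library labelled KAT8 cKO, with 2 and 1 counts in the library labelled WT. The part of these cells in the values of Apoe, Gpnmb and Spp1 was not tested.

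**Figure D2:**
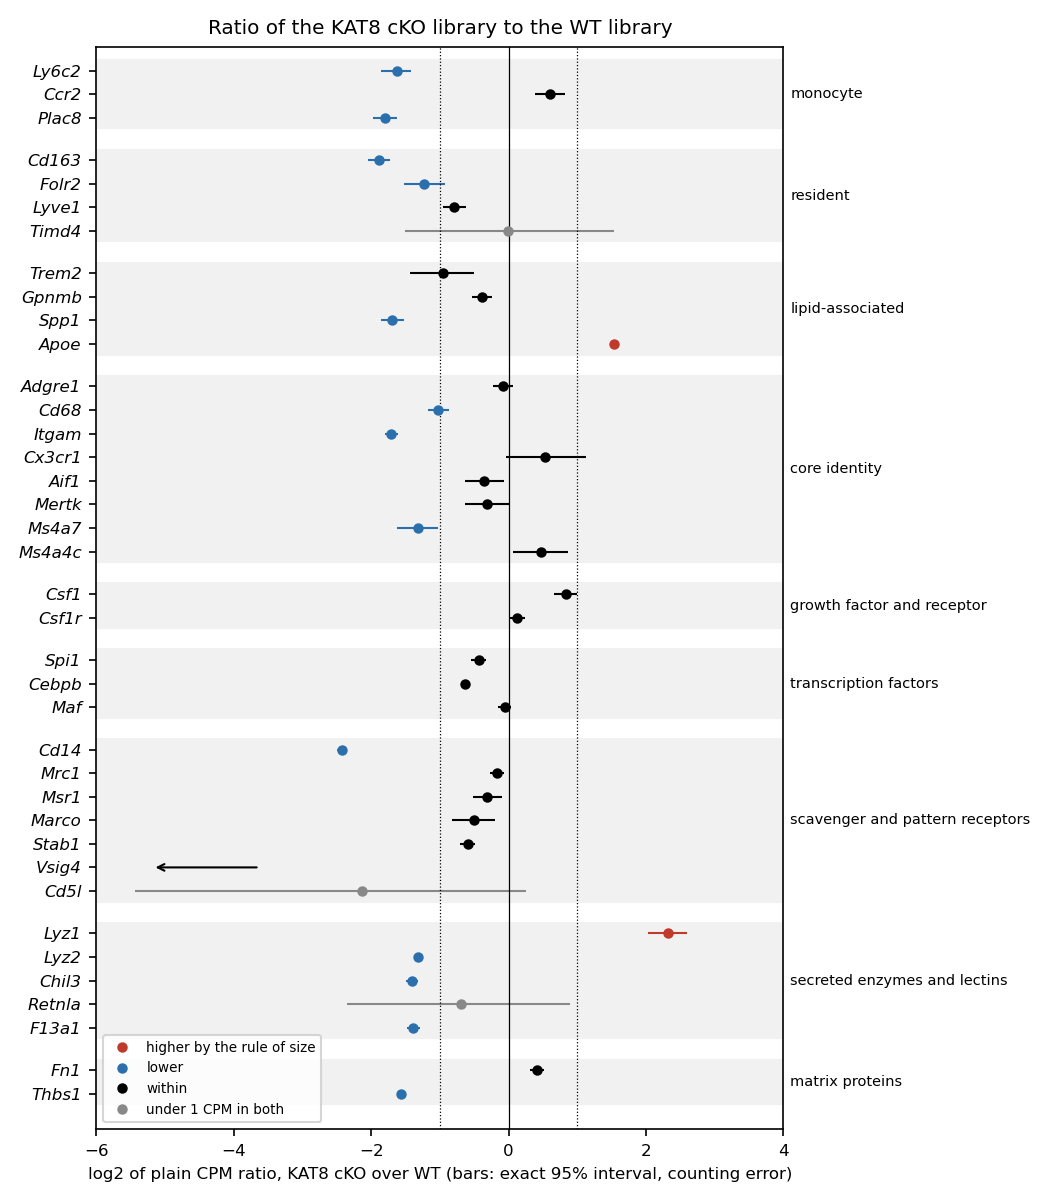
Log2 of the plain CPM ratio (library labelled KAT8 cKO over library labelled WT) of each member with its exact 95% counting interval, grouped by role, with dotted lines at 1 and -1. The arrow for Vsig4 starts at its bound of -3.61, and the resident genes Cd163, Folr2 and Lyve1 lie left of 0 while Apoe and Lyz1 lie right of 1.

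The core identity genes differed among themselves. Adgre1, which encodes F4/80, was nearly level, with 899 counts in the library labelled KAT8 cKO and 755 in the library labelled WT, or 62.0 and 65.5 CPM (ratio 0.945, interval 0.857 to 1.04). Cd68, a lysosomal glycoprotein of phagocytes, had 42.2 and 85.6 CPM, 2.03-fold lower (interval 1.83 to 2.25), a log2 ratio of -1.0 that fell short of the rule with plain CPM and with DESeq2 size factors. Itgam, the CD11b chain of complement receptor 3 on monocytes and neutrophils, had 87.2 and 285 CPM and was 3.27-fold lower (interval 3.06 to 3.49). It shares exons with Gm49368 on the same strand, which had 600 and 948 counts. Ms4a7, a tetraspanning protein gene of tissue macrophages, had 142 and 281 counts and was 2.49-fold lower (interval 2.03 to 3.07).

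The remaining core genes did not pass the rule. Aif1, which encodes the actin-binding protein IBA1, had 14.1 CPM in the library labelled KAT8 cKO and 18 CPM in the library labelled WT, and Mertk, a receptor for apoptotic cells, 11.1 and 13.8 CPM. Cx3cr1, the fractalkine receptor of patrolling monocytes and some macrophages, had 73 and 40 counts, a ratio whose interval of 0.972 to 2.19 included 1. Ms4a4c, another gene of the Ms4a family, had 146 and 84 counts, a ratio of 1.38 (interval 1.05 to 1.83). Over the 8 core genes the median was -0.31 on the log2 scale.

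The growth factor axis was level or above. Csf1r had 1716 counts in the library labelled KAT8 cKO and 1247 in the library labelled WT, or 118 and 108 CPM (ratio 1.09, interval 1.02 to 1.18). Its ligand Csf1, made by stromal and epithelial cells, had 66.2 and 37.2 CPM (ratio 1.78, interval 1.59 to 2.0), short of the rule at a log2 ratio of 0.82. Il34, the second ligand, which keratinocytes make, had 235 and 151 counts (log2 ratio 0.29). An exon of Csf1r overlaps one of Hmgxb3 on the other strand, which had 701 and 406 counts. Among 11 measured genes of CSF signalling 2 were lower and none higher (median -0.46). These were Csf3r, the granulocyte CSF receptor, at 122 and 374 CPM, and the adaptor gene Tyrobp at 68.8 and 194 CPM.

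None of the 3 transcription factors passed the rule. Spi1 had 88.5 CPM in the library labelled KAT8 cKO and 120 CPM in the library labelled WT (ratio 0.740, interval 0.685 to 0.799). Cebpb, a C/EBP factor of myeloid cells and keratinocytes, had 508 and 788 CPM (ratio 0.645, interval 0.625 to 0.665). Maf, a factor of resident macrophages, had 140 and 145 CPM (ratio 0.963, interval 0.902 to 1.03). An exon of Cebpb overlaps one of Tmem189 (1085 and 1350 counts) on the other strand, and that of Maf one of the antisense gene Gm15655, with 1 count in each library.

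Among the scavenger and pattern receptors, Cd14 and Vsig4 were lower by the rule and the other 4 measured genes did not pass it. Cd14, the lipopolysaccharide co-receptor, had 2375 counts in the library labelled KAT8 cKO and 10164 in the library labelled WT, or 164 and 882 CPM. It was 5.39-fold lower (interval 5.16 to 5.64), and 0.774% of all measured genes had a lower log2 ratio than its -2.42. Vsig4, a complement receptor of resident macrophages encoded on the X chromosome, had 0 and 29 counts. With its 0 set to a floor of 3 counts, a chosen setting and not a measured value, it was 12-fold lower. The exact interval of its ratio ran from 0 to 0.108, or at least 9.29-fold lower. As for every member, a difference in sex and one in genotype cannot be told apart for this X-linked gene. Mrc1, the mannose receptor, had 108 and 121 CPM, Msr1 27.5 and 34.0 CPM, Marco 11.2 and 16 CPM, and Stab1 86.4 and 131 CPM. These 4 lay between -0.17 and -0.59 on the log2 scale. Stab1 shares exons with Nt5dc2 on the other strand (1584 and 1630 counts). Cd5l, a secreted scavenger protein gene, had 2 and 7 counts, under 1 CPM in both. The sum of the 7 genes was 2.99-fold lower, and 1.31-fold lower without Cd14.

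The lysozyme genes went in opposite directions. Lyz2, the lysozyme of myeloid cells, had 5462 counts in the library labelled KAT8 cKO and 10828 in the library labelled WT, or 376 and 940 CPM (2.5-fold lower, interval 2.42 to 2.58). Lyz1, known as the lysozyme of intestinal Paneth cells, had 757 and 121 counts, or 52.2 and 10.5 CPM (4.97-fold higher, interval 4.09 to 6.07). Lyz1 made up 12% of the counts of the pair in the library labelled KAT8 cKO (interval 11.4% to 13%) and 1.11% in the library labelled WT (0.918% to 1.32%). The pair as a whole had 6219 and 10949 counts and was 2.22-fold lower.

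The genes lie side by side on the minus strand, Lyz1 at chr10:117287797-117292868 and Lyz2 at chr10:117277331-117282321 (GRCm38), and their coding sequences were 95% identical, with 22 differing positions among 444. The first 240 coding bases from the GENCODE M21 transcripts, shown because these differences are what can separate their reads, carry 17 of them, given in capitals.

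Lyz1: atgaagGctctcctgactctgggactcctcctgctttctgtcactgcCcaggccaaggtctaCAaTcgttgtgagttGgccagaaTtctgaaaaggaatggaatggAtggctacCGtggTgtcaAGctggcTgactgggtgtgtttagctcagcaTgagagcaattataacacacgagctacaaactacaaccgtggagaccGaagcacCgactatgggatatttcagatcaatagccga

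Lyz2: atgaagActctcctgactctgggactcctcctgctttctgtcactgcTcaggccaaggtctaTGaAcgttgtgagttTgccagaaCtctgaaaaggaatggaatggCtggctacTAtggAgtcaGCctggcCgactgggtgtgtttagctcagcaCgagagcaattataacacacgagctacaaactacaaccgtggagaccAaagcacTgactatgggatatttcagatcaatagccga

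Of the 100-base words of Lyz1 transcripts 2.06% also occurred in Lyz2, and of the 50-base words 16.1%. No source used here gives the read length. Some reads of the more abundant Lyz2 could therefore have been counted for Lyz1, and their part in the values of Lyz1 was not tested.

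The other secreted proteins were lower or too low to measure. Chil3, a chitinase-like lectin of alternatively activated macrophages and neutrophils, had 104 CPM in the library labelled KAT8 cKO and 274 CPM in the library labelled WT (2.64-fold lower, interval 2.48 to 2.81). Its close relative Chil4, with a coding sequence 94.4% identical, had 1 count in each library. F13a1, the A chain of coagulation factor XIII in monocytes and dermal macrophages, had 96.1 and 251 CPM (2.62-fold lower, interval 2.46 to 2.79). Retnla, a resistin-like gene induced by type 2 cytokines, had 7 and 9 counts.

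The matrix proteins split. Thbs1, encoding thrombospondin 1, had 444 CPM in the library labelled KAT8 cKO and 1319 CPM in the library labelled WT (2.97-fold lower, interval 2.89 to 3.06). Fn1, encoding fibronectin, had 128 and 95.8 CPM (ratio 1.33, interval 1.24 to 1.44). Fibroblasts and keratinocytes make both proteins. Fibroblast markers had a median log2 ratio of 0.16 with 3 of 12 higher and 3 lower (summed 5347 and 3928 CPM), and keratinocyte markers one of -0.86 with 1 of 12 higher and 6 lower (summed 33247 and 38984 CPM), none at 0. Their part in the values of Thbs1, Fn1 and Cebpb was not tested.

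Divided by exon length, so that genes can be set beside each other, the order of the members changed at the top. In the library labelled KAT8 cKO the highest were Apoe at 581 CPM per kb, Cebpb at 338, Lyz2 at 286 and Cd14 at 94.5. In the library labelled WT they were Lyz2 at 714 CPM per kb, Cebpb at 524, Cd14 at 509 and Thbs1 at 217, with Apoe at 200.5. Csf1r and Adgre1 stood at 20.5 and 19.1 CPM per kb in the library labelled KAT8 cKO and at 18.8 and 20.2 in the library labelled WT. The order of neighbours rests on 1 library each.

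**Figure D3:**
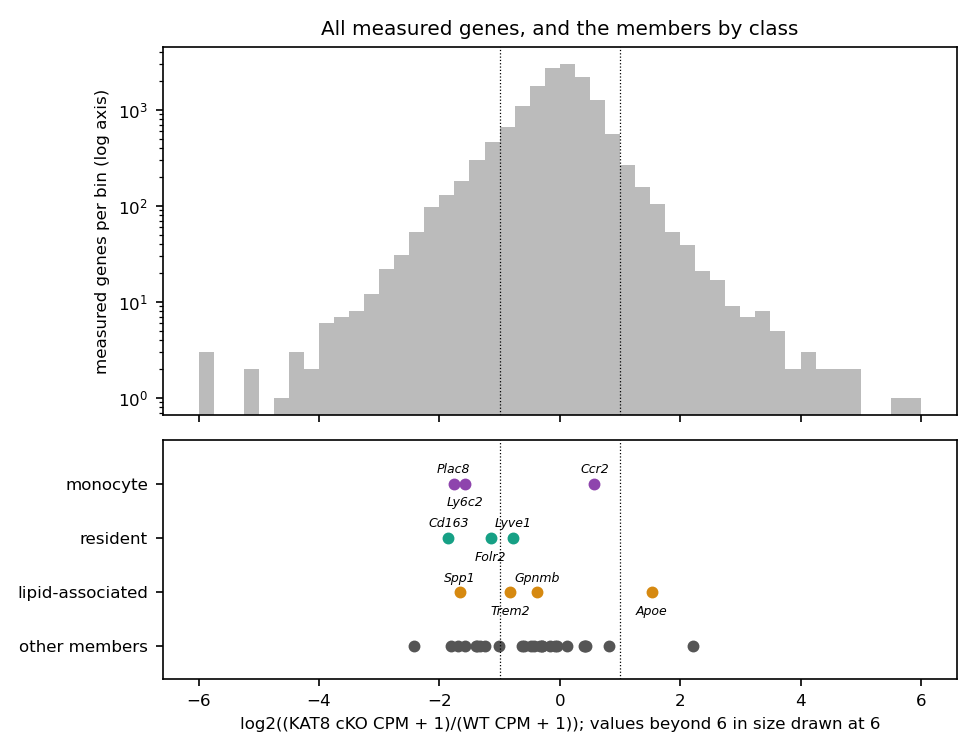
Above, the number of genes per log2 ratio bin among the 15240 measured genes, on a log axis; below, the measured members by class, with dotted lines at 1 and -1. Every resident gene lies below 0, whereas the monocyte class holds Ccr2 at 0.58 and the lipid-associated class Apoe at 1.53 on the other side of 0 from the rest.

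The direction of many members depended on what they were set against. Ptprc, the CD45 gene of all leukocytes, had 1389 counts in the library labelled KAT8 cKO and 2000 in the library labelled WT (ratio 0.551, interval 0.515 to 0.591). The sum of Csf1r and Adgre1, taken as a measure of the lineage that Langerhans cells share, had 2615 and 2002 counts (ratio 1.04). Relative to Csf1r and Adgre1, 14 of 32 members were at least 2-fold lower and 2 higher. Relative to Ptprc, 2 of 34 members, Cd163 and Cd14, were at least 2-fold lower, and 7 were at least 2-fold higher, namely Ccr2, Apoe, Cx3cr1, Ms4a4c, Csf1, Lyz1 and Fn1. The median log2 ratio was 0.31 over the 34 members relative to Ptprc and -0.67 over the 32 relative to Csf1r and Adgre1. Ptprc itself had a log2 ratio of -0.86 and the sum of Csf1r and Adgre1 one of 0.05. Each is subtracted from every gene, member or not, so these counts move with the denominator. The shares of all measured genes past 2-fold on these scales were not counted, so the counts are not read as particular to the members. Neutrophils also carry CD45. Ly6c2 and Plac8 remained lower by either measure (log2 ratios of -0.77 and -0.94 to Ptprc, and of -1.68 and -1.85 to Csf1r and Adgre1), while Lyve1 stood at 0.07 to Ptprc and -0.84 to Csf1r and Adgre1.

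**Figure D4:**
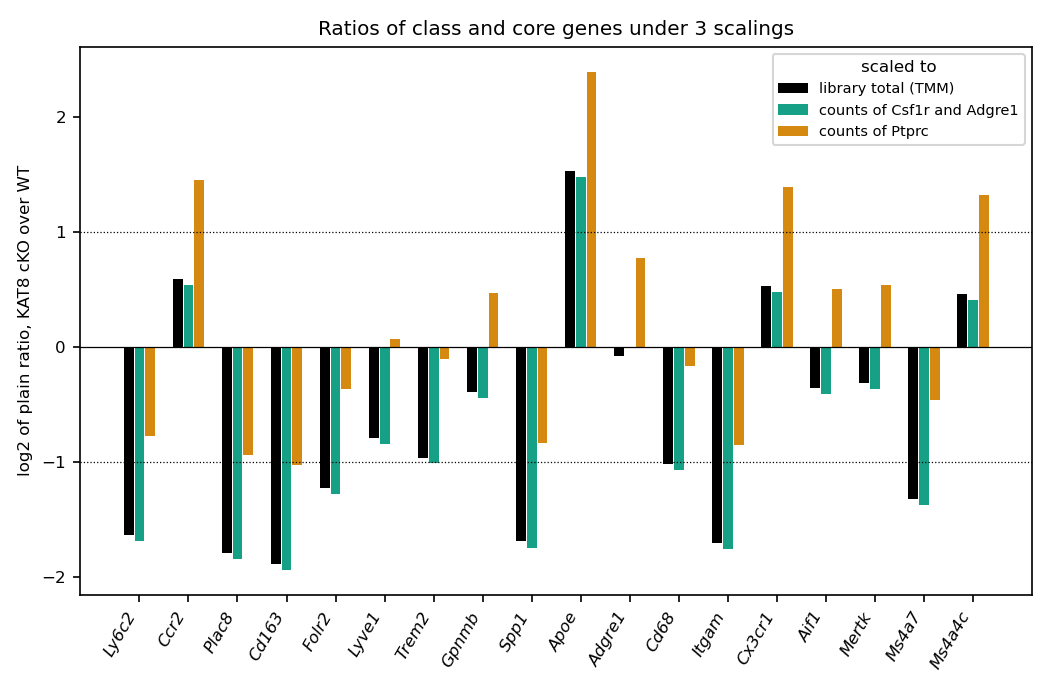
Log2 of the plain ratio (library labelled KAT8 cKO over library labelled WT) of the measured class and core genes, scaled to the library total (black), to Csf1r and Adgre1 counts (green) or to Ptprc counts (orange), with dotted lines at 1 and -1. Green follows black closely and orange sits higher, with Gpnmb, Lyve1, Adgre1, Aif1 and Mertk at or above 0 only when scaled to Ptprc.

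Other genes of the same cells were read from lists outside the 38. Of 19 measured resident macrophage genes 10 were lower and none higher (median -1.07). Selenop, a selenium carrier, had 193 CPM in the library labelled KAT8 cKO and 811 CPM in the library labelled WT, the chemokine gene Ccl8 27.5 and 107 CPM, and the lectin genes Cd209g and Cd209d 5.86 and 27.0 CPM and 4.20 and 17.7 CPM. Of 18 measured monocyte genes 5 were lower and 1 higher (median -0.48). Ifitm6 had 42.2 and 207 CPM and the lectin gene Clec4e 18.8 and 81.4 CPM, both of which neutrophils can express, and Cd300e, a receptor gene of monocytes, had 14.9 and 3.91 CPM.

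Of 20 lipid-associated genes outside the list 6 were lower and none higher (median -0.58). They included the fatty acid binding protein gene Fabp4 at 90.5 CPM in the library labelled KAT8 cKO and 1087 CPM in the library labelled WT, the lipase gene Lpl at 135 and 433 CPM, Tyrobp, and the elastase gene Mmp12 at 1.65 and 7.73 CPM. Fabp4 and Lpl are also adipocyte genes, and that list was lower in 9 of 12 cases with none higher (median -3.13, summed 530 and 3664 CPM, none at 0). Of 20 further core genes 4 were lower and none higher (median -0.60). These were Tlr2 at 28.1 and 122 CPM, the Fc receptor gene Fcgr3 at 80.6 and 293 CPM, the complement gene C1qc at 77.9 and 170 CPM and the integrin chain gene Itgb2 at 116 and 247 CPM. Of the 4 ligands of CCR2 and CX3CR1, Ccl7 was higher at 67.2 and 27.3 CPM, Ccl2 had 32.7 and 18.8 CPM (log2 ratio 0.77), and Ccl12 and Cx3cl1 lay at -0.22 and -0.10.

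Dendritic and Langerhans cell genes were mostly higher, unlike the members. Of 16 measured 12 were higher in the library labelled KAT8 cKO and 1 lower (median 1.44, summed 834 CPM in the library labelled KAT8 cKO and 358 CPM in the library labelled WT), with Xcr1 and Clec9a at 0 in the library labelled WT. The class II gene H2-Ab1 had 166 and 56.9 CPM, its activator Ciita 11.6 and 3.30 CPM, the migration receptor gene Ccr7 7.37 and 1.65 CPM and the integrin gene Itgae 5.03 and 0.694 CPM. The Langerhans marker Cd207, named after its value was seen, had 200 and 63 counts. These cells also express Csf1r, Adgre1, Ccr2 and Cx3cr1, members with log2 ratios of 0.13, -0.08, 0.58 and 0.43, and their part in those values was not tested. T and natural killer genes were higher in 5 of 8 cases (median 1.09, summed 42.0 and 26.8 CPM).

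The remaining markers were read for other cells in the specimen. All 10 muscle genes were lower by the rule of size (median -2.55), as were all 6 red cell genes (median -3.47, Slc4a1 at 0 in the library labelled KAT8 cKO). Blood endothelial genes had none of 10 past the rule (median -0.51), mast cell genes 1 of 9 higher and 1 lower (median -0.32), and eosinophil and basophil genes 1 of 4 higher (median 0.28), with Epx at 0 in both libraries, Prg2 at 0 in the library labelled KAT8 cKO and Il5ra at 0 in the library labelled WT.

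**Figure D5:**
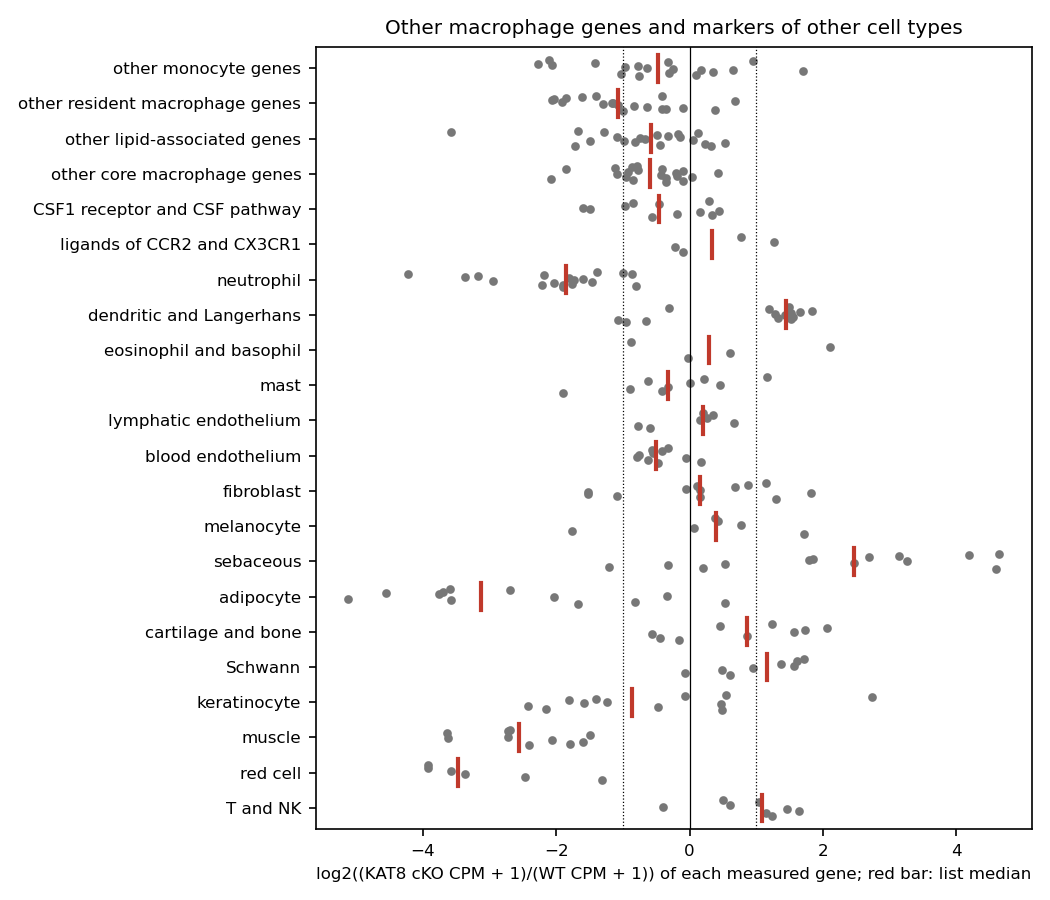
Log2 ratios (library labelled KAT8 cKO over library labelled WT) of every measured gene in each list of other macrophage genes or cell type markers (grey points), with the list median as a red bar. The resident macrophage list sits at -1.07 and the neutrophil list at -1.85, against 1.44 for dendritic and Langerhans cells and 2.47 for sebaceous glands.

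Promoter windows from RefSeq (GRCm38.p6, 250 bases before to 50 after the start) were found for 29 of the 38 members, and not for Adgre1, Cd14, Csf1r, Fn1, Lyve1, Maf, Msr1, Spi1 and Thbs1. They were searched on both strands for elements of factors known in the lineage. The PU.1 element GAGGAAGT was in a window of 4 of the 29 members (13.8%), namely F13a1, Ly6c2, Retnla and Spp1, and in one of 3.69% of all 27025 genes with windows. The C/EBP element TTGCNNAA was in 6 of 29 (20.7%, against 12% of all genes), the AP-1 element TGANTCA in 5 (17.2%, against 8.97%) and the E-box CACGTG in 0 (against 8.09%). Genes with several starts have several windows, and by window the PU.1 element was in 5 of 37 (13.5%) and 3.20% of all. The Ly6c2 windows among these overlap and hold the same matches, so that stretch is counted more than once. The PU.1 match of F13a1 came from a window whose 250 bases before the start lie inside the annotated gene. The same holds for the C/EBP matches of Plac8 and Spp1 and the AP-1 matches of Folr2 and Ms4a7. A match is a run of letters and not a shown binding site.

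The bases before the start that lie outside the annotated gene, 250 at most, are given for Ly6c2 and Spp1, lower members with the PU.1 element, and for the lysozyme genes, which went in opposite directions. They are written 5′ to 3′ on the gene's strand, with the searched elements in capitals. Ly6c2 lies on the minus strand (chr15:75111971-75112187) and holds 1 copy of the PU.1 element in the stretch shown. Spp1 lies on the plus strand (chr5:104434861-104435110) and holds 1 copy as well. Lyz1 (chr10:117292869-117293118, minus) holds a C/EBP element on its other strand, and Lyz2 (chr10:117282322-117282522, minus) holds none of those searched. The 250 bases before the RefSeq starts of the lysozyme genes were 79.4% identical over 252 aligned positions.

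Ly6c2: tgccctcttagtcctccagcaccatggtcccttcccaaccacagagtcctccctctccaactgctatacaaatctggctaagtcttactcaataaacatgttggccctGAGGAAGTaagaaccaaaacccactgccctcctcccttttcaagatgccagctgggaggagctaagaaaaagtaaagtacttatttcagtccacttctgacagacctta

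Spp1: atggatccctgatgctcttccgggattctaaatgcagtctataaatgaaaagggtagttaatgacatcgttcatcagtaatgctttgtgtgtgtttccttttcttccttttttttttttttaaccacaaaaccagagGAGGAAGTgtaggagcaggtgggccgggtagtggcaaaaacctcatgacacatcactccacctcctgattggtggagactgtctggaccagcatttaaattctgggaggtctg

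Lyz1: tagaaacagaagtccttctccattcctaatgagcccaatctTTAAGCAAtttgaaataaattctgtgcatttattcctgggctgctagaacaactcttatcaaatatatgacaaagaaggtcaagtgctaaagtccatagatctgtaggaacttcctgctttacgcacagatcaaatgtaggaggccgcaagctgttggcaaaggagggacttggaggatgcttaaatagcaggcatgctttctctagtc

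Lyz2: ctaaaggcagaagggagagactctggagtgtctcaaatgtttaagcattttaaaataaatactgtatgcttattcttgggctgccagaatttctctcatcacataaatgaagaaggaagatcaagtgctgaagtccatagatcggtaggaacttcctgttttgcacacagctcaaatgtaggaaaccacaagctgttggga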

How the data were processed

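RNA was measured in 2 libraries of imiquimod-treated mouse ear skin, 1 per genotype label. The values the authors deposited are raw, unnormalized counts for each Ensembl gene. RNA was enriched for polyadenylated molecules, per the labels' protocols. The submitters' processing notes name HISAT2, StringTie 1.3.0, edgeR and mm10, with no roles. No source used here gives the counting tool, the annotation release or the use of strand, so reads in exons shared with another gene, as for 8 members, cannot be told apart.

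Symbols, positions and exon lengths are from GENCODE M21 (GRCm38, the assembly mm10 names), which matched 34344 of 34745 identifiers. Counts were scaled with TMM factors from edgeR 4.0.16 (R 4.3.3), 1.06 for the library labelled KAT8 cKO and 0.946 for the library labelled WT. Log2 ratios are of CPM + 1, which understates low genes, over genes that reach 1 CPM in a library. Plain ratios carry exact Clopper-Pearson 95% intervals (scipy 1.17.1), given both totals. A count of 0 was also set to a floor of 3 counts, which leaves out counting error. No test was run, as each group has 1 library. The calculations were tested on simulated Poisson counts.

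The members, the 22 companion lists (273 entries, 2 not found) and the rule for naming genes were chosen with earlier results of these data known. That rule took from each list up to 4 genes past the rule of size, by largest log2 ratio, or the 2 most abundant where fewer than 2 passed. Members were all named, and some of the genes the rule took are given by their list only. Alternatives were plain CPM, DESeq2 1.42.0 size factors, leaving out the 50 most abundant genes or those sharing exons, other filters (none, 5 CPM), a pseudocount of 0.1, and scaling to Ptprc or to Csf1r and Adgre1.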

Additional observations from a re-analysis of the deposited data

How the results depend on the processing

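Over all genes, plain CPM raised the median log2 ratio to 0.16 from 0.01 and gave 6.33% higher and 6.94% lower, so the balance of calls depends on the scaling. With plain CPM the number of lower resident genes was 1 in place of 2, since Folr2 dropped out, and the ratios of summed CPM were 0.523 for monocyte, 0.427 for resident and 2.49 for lipid-associated genes (0.468, 0.382 and 2.23 with TMM). Leaving out the most abundant member of a class gave 0.689 for monocyte and 0.539 for resident genes, turned the lipid-associated ratio round to 0.495 (without Apoe) and that of the matrix proteins to 1.33 (without Thbs1). Without genes sharing exons, 0 lipid-associated genes were lower, because Spp1 was removed, although its partner held 3 counts in the library labelled KAT8 cKO and 9 in that labelled WT. The medians over all members and over the monocyte, resident and lipid-associated classes moved by at most 0.25 under each of the 7 alternatives to scaling, filter and pseudocount. The members past the rule other than Vsig4 kept their direction with plain CPM and relative to Ptprc or to Csf1r and Adgre1, while Vsig4, at 0 counts in the library labelled KAT8 cKO, has no value relative to either. Counting error limits the members under 1 CPM (Timd4, Retnla, Cd5l) and Vsig4, and the spread between animals is unknown for every member.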

Other observations

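The members that belong to gene clusters can be set beside their neighbours, taken by family name and not by value. Of the 11 measured Ms4a genes on chromosome 19, 10 had log2 ratios below 0, 4 were lower by the rule of size and none was higher (median -0.43). Ms4a4c was the single one above 0. Over all measured genes 7528 of 15240 lay below 0, and 8.63% were lower by the rule of size. Next to Ms4a7, Ms4a14 had 30 counts in the library labelled KAT8 cKO and 61 in that labelled WT (ratio 0.390, interval 0.243 to 0.614). Ms4a4a had 443 and 477 (ratio 0.737, interval 0.646 to 0.841), and Ms4a6c had 725 and 720 (ratio 0.799, interval 0.720 to 0.887). Of the 7 measured Ly6 genes on chromosome 15, 2 were lower, Ly6c2 and the neutrophil antigen gene Ly6g (135 and 476 counts), while Ly6a had 4003 and 2146 counts. Of the 3 measured Chil genes, Chil3 was lower by the rule and Chil1 had 3659 and 3838 counts (ratio 0.757, interval 0.723 to 0.792).

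Ear2, named by the rule from the eosinophil and basophil list, had 75 counts in the library labelled KAT8 cKO and 5 in that labelled WT (ratio 11.9, interval 4.88 to 37.7), whereas the eosinophil granule genes Epx and Prg2 had 0 and 0 counts and 0 and 3 counts in the same order, and Siglecf 5 and 7.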
